A study of Mus musculus with 2 samples.

Results

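The mitochondrial ribosomal protein genes were followed in M210B4, an established mouse bone marrow stromal cell line, after activation of the surface receptor CD84. The genes were all those with a symbol made of Mrpl or Mrps and a number that had a probe set of their own, and there were 71 of them (43 Mrpl and 28 Mrps) among the 22180 genes that the arrays named in this way. The anti-CD84 group was 1 culture treated for 24 h with a CD84-activating antibody (clone 152-1D5) and the IgG1 group was 1 culture treated for 24 h with an isotype control antibody. Cells of both groups were kept at 37 °C and 5% CO2 in RPMI medium with 2% serum, so both were serum-starved, and RNA of each group was hybridised to 1 array (Affymetrix Mouse Gene 2.0 ST). With 1 array per group there is no replicate, no error estimate and no test, and every difference below is between these 2 arrays. A different state of a culture for any other reason cannot be told apart from the treatment.

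Mitochondria have their own ribosome, which translates the few messages of mitochondrial DNA into membrane subunits of the respiratory chain. Its RNAs are mitochondrial, but all its proteins are encoded in the nucleus, made in the cytosol and imported. Proteins named Mrpl mostly belong to the large subunit, which joins amino acids, and those named Mrps mostly to the small subunit, which reads the message. Many have a counterpart in the bacterial ribosome, and the others are additions found in mitochondria.

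A gene was represented by its brightest probe set and counted as detected when the log2 value exceeded 4.84 on at least 1 array, a working level set by olfactory and vomeronasal receptor genes. In all, 69 of the 71 genes were detected, each of them on both arrays. Those not detected were Mrpl27 (log2 4.17 after anti-CD84 and 4.80 after IgG1) and Mrps36 (4.27 and 4.52), whose protein is now known as part of the 2-oxoglutarate dehydrogenase complex. A further 7 genes (Mrpl30, Mrpl33, Mrpl41, Mrpl43, Mrpl44, Mrpl53 and Mrps6) appear only on probe sets shared with another gene and were not analysed here. Pearson's r between the arrays was 0.967 across the 41345 probe sets. All 9 measured markers of marrow stroma were detected, 8 of them on both arrays, among them Col1a1 (12.52 and 12.53); Thy1 (4.39 and 4.95) exceeded the level after IgG1 only. Of the markers of other cells, 0 of 5 for blood cells were detected. Both endothelial markers, Pecam1 (4.32 and 4.99) and Cdh5 (4.61 and 5.56), exceeded the level after IgG1 only, and of the epithelial markers Krt8 (5.27 and 5.42) was detected and Epcam was not. The part of these cells in the results was not tested.

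Levels of the mitoribosomal genes lay in the middle of the scale and differed little at the median. Their median log2 level was 7.55 after anti-CD84 and 7.63 after IgG1, and the median of the 69 differences, anti-CD84 minus IgG1, was 0.03. All 13290 detected genes had a median difference of 0.09. Of the 69 genes 36 had a higher value after anti-CD84 and 33 a lower one, whereas 59.0% of all detected genes were higher. When the differences were centred on the median of all detected genes, the mitoribosomal median became -0.06 and the split 28 higher and 41 lower.

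**Figure D1:**
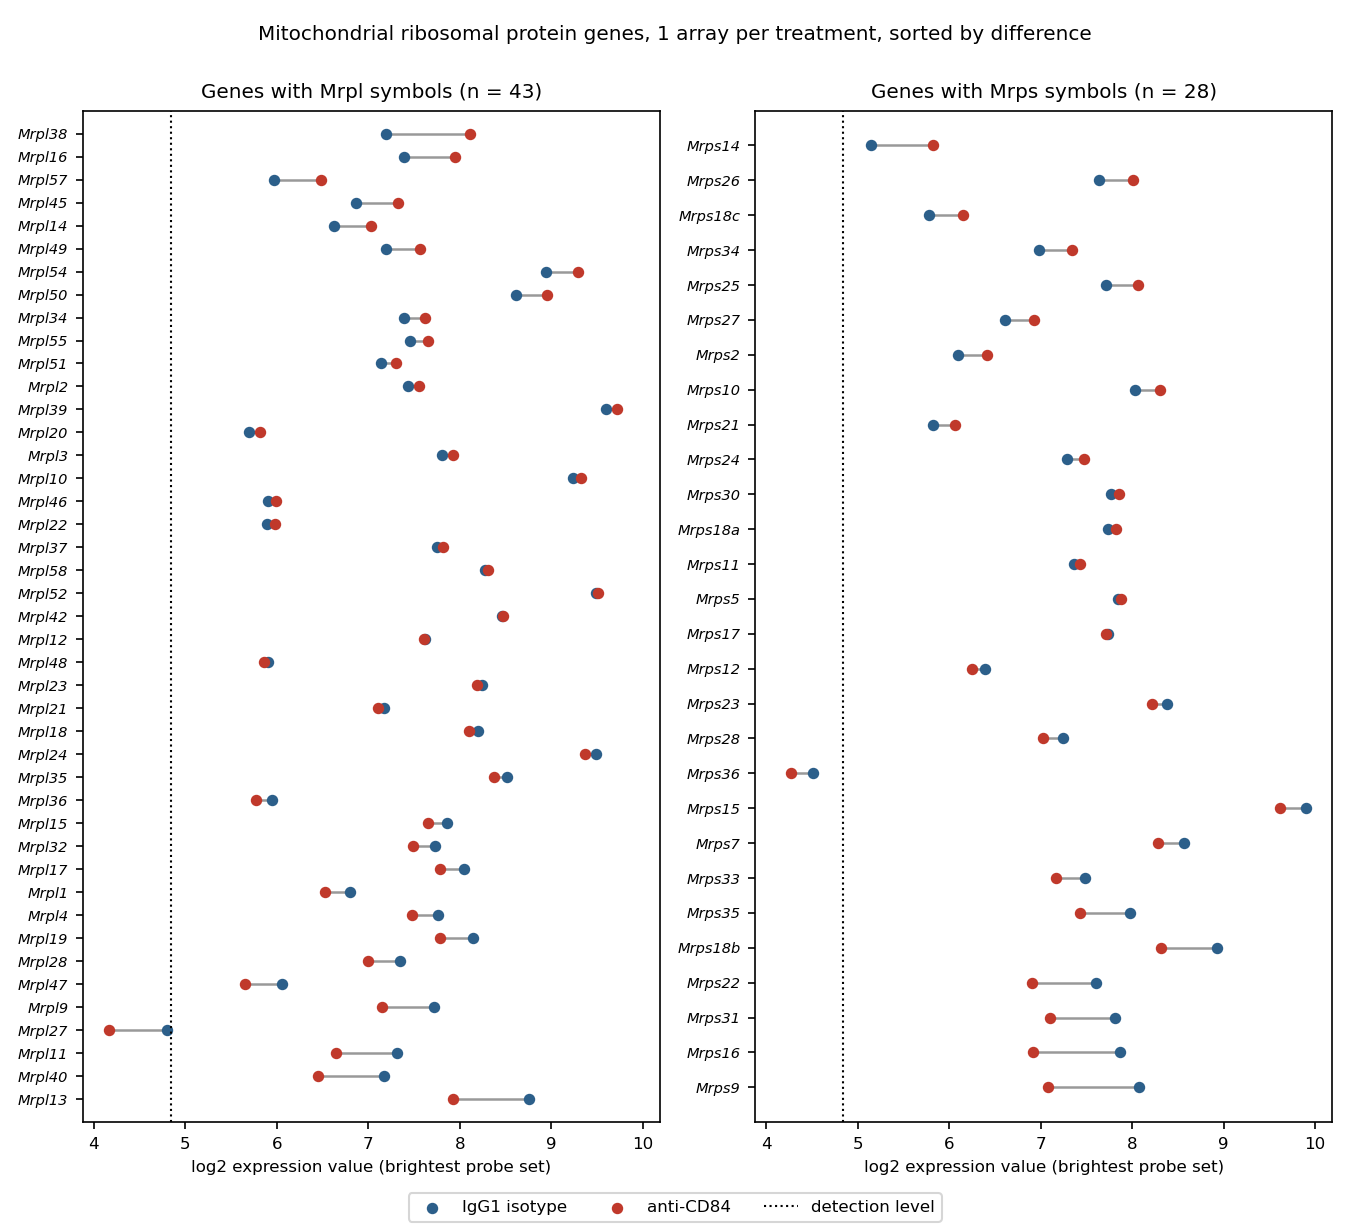
Log2 expression values (x axis) of the 71 genes (rows, sorted by difference, Mrpl symbols on the left and Mrps on the right), with 1 blue point for the IgG1 array, 1 red point for the anti-CD84 array and a line between them; the dotted line is the detection level. Mrpl38 and Mrps14 have the widest gaps with the red point on the right, Mrps9 and Mrps16 those with it on the left, and only Mrpl27 and Mrps36 lie left of the dotted line on both arrays.

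Behind the small median, single genes differed in both directions, and the larger differences were more often downward. At a limit of 1.5-fold, 8 of the 69 genes (11.6%) were lower after anti-CD84 and 2 (2.90%) were higher, and 59 lay within the limit. Among all detected genes 6.4% were at least 1.5-fold lower and 10.7% at least 1.5-fold higher. At 2-fold 0 of the 69 genes were counted in either direction, beside 1.43% lower and 1.98% higher of all detected genes. The spread of the mitoribosomal differences was an SD of 0.39 across genes, against 0.44 for all detected genes.

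Because dim probe sets scatter more than bright ones, the counts were also read within ranges of mean log2 level. Between levels 7 and 8 lay 35 of the genes, of which 4 were at least 1.5-fold lower and 1 higher, beside 3.59% and 11.9% of all detected genes at those levels. Between levels 8 and 9, 2 of 11 were lower and 0 higher, beside 2.22% and 7.62%. Between levels 5 and 7, 2 of 17 were lower and 1 higher, beside 7.69% and 13.3%. Between levels 9 and 10, 0 of 6 were lower or higher, beside 1.38% and 5.6%. In the 3 ranges from 5 to 9 the share of lower mitoribosomal genes was above that of all detected genes and the share of higher ones below it, on counts of at most 4 genes, and at levels 9 to 10 both shares were below.

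**Figure D2:**
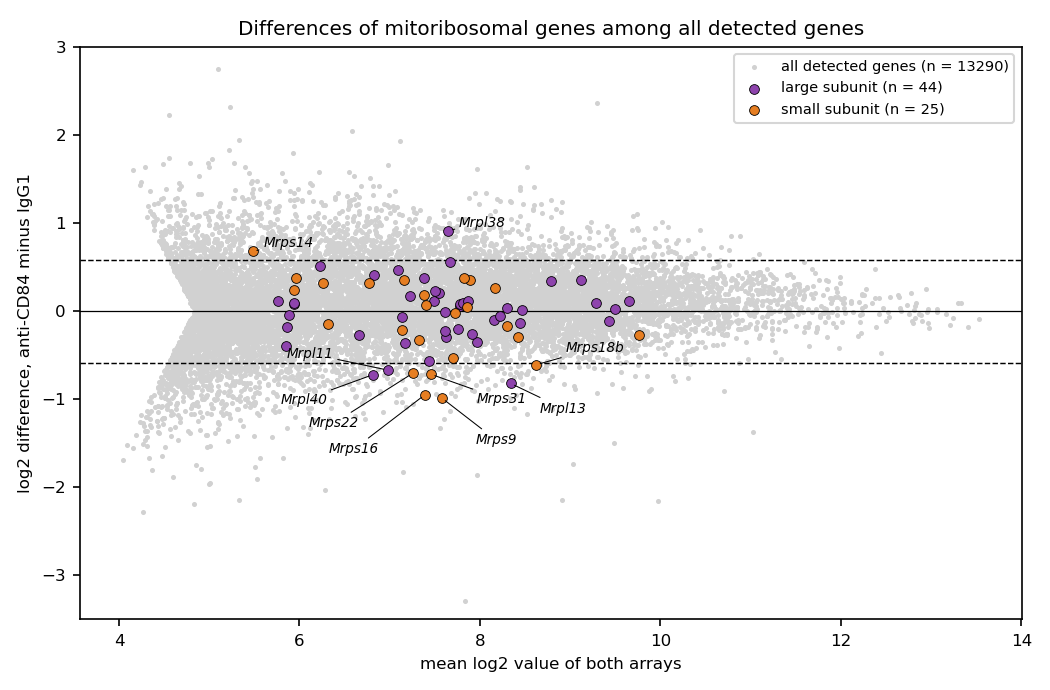
Log2 difference, anti-CD84 minus IgG1 (y axis), against the mean log2 value of both arrays (x axis), for all 13290 detected genes (grey), large subunit genes (purple, n = 44) and small subunit genes (orange, n = 25); dashed lines mark 1.5-fold. The 8 labelled genes below the lower dashed line have mean levels between 6.82 and 8.62, and Mrpl38 and Mrps14 lie above the upper one.

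The genes with lower values came from both subunits, with 5 of 25 small subunit genes (20%) and 3 of 44 large subunit genes (6.82%) past 1.5-fold, the second share being near that of all detected genes. The small subunit count rests in part on the choice of probe set. Mrps16 and Mrps18b, among the 5, have a further probe set with differences of 0.31 and 0.25, and neither passes 1.5-fold when probe sets are averaged. Mrps9, whose bacterial counterpart sits in the head of the small subunit, had a log2 value of 7.09 after anti-CD84 and 8.08 after IgG1. That is a difference of -0.99, or 1.99-fold lower, and the lowest of the 69. Mrps16, mutations of which impair mitochondrial translation in people, was at 6.91 after anti-CD84 and 7.86 after IgG1, 1.94-fold lower. Both lay just short of 2-fold.

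Mrps31 and Mrps22 are additions of the mitochondrial small subunit without a bacterial counterpart. Mrps31 was at 7.10 after anti-CD84 and 7.82 after IgG1, 1.65-fold lower, and Mrps22 at 6.90 and 7.61, 1.63-fold lower. Mrps18b was at 8.32 and 8.93, 1.53-fold lower. Nomenclature places it in the same class, although its paralogue Mrps18c is counted with a bacterial counterpart. Mrps18b was the member just past the limit on this side. Mrps35, another protein of the small subunit head, lay just inside it at 7.43 and 7.97, 1.45-fold lower.

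Of the large subunit, Mrpl13 was at 7.93 after anti-CD84 and 8.75 after IgG1, 1.77-fold lower. Mrpl40, a protein of the central protuberance, a crest of the large subunit that faces the small one, was at 6.45 and 7.18, 1.65-fold lower. Mrpl11, from the base of the stalk where elongation factors bind, was at 6.64 and 7.31, 1.59-fold lower. Mrpl9 lay just inside the limit at 7.15 and 7.72, 1.48-fold lower. The other stalk genes did not share this difference: Mrpl10 was at 9.33 and 9.23 and Mrpl12, whose protein forms the flexible part of the stalk, at 7.61 and 7.62.

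Mrpl38 and Mrps14 were the genes with values more than 1.5-fold higher. Mrpl38, like Mrpl40 a protein of the central protuberance, was at 8.11 after anti-CD84 and 7.20 after IgG1, 1.88-fold higher. Mrpl38 and Mrpl40 thus had differences of 0.91 and -0.72 although their proteins lie in 1 structure. Mrpl46 (5.99 and 5.90) and Mrpl48 (5.86 and 5.90), also of that crest, differed by 0.09 and -0.05. Mrps14 was at 5.82 and 5.14, 1.60-fold higher, near the detection level after IgG1.

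Next in order on the higher side, and inside the limit, were Mrpl16, Mrpl57, Mrpl45 and Mrpl14. Mrpl16, whose bacterial counterpart helps to place tRNA at the peptidyl transferase centre, was at 7.95 after anti-CD84 and 7.39 after IgG1, 1.47-fold higher. Mrpl57 was at 6.48 and 5.97, 1.43-fold higher. Mrpl45, which holds the ribosome at the inner membrane beside the tunnel exit, was at 7.33 and 6.86, 1.38-fold higher. Mrpl14 was at 7.03 and 6.62, 1.33-fold higher.

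Of the 69 genes 29 had a difference under 0.2 in size. The share of all detected genes with so small a difference was not computed, so this count is not read as a trait of the set. Among the 29 was Mrpl58 (8.31 and 8.28), which encodes a peptidyl-tRNA hydrolase built into the large subunit. Others were Mrps5 (7.88 and 7.84), Mrps11 (7.43 and 7.37) and Mrpl3 (7.93 and 7.81). Mrps12, a protein of the decoding centre, was at 6.24 after anti-CD84 and 6.39 after IgG1. The brightest probe sets of the large subunit were those of Mrpl39 (9.72 and 9.60), Mrpl52 (9.51 and 9.49) and Mrpl24 (9.37 and 9.49), and those of the small subunit Mrps15 (9.62 and 9.90), Mrps18b and Mrps7 (8.28 and 8.57). The dimmest detected ones were Mrpl20 (5.82 and 5.70), Mrpl47 (5.66 and 6.05) and Mrpl36 (5.77 and 5.95) in the large subunit and Mrps14, Mrps21 (6.06 and 5.83) and Mrps18c (6.15 and 5.78) in the small. Values of different probe sets depend on their probes and were not read as amounts of RNA.

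Grouped by subunit and by descent, the large subunit genes had medians on either side of zero. Proteins with a bacterial counterpart were encoded by 27 detected large subunit genes, of which 9 were higher and 18 lower after anti-CD84, with a median difference of -0.12. For the 17 large subunit genes without such a counterpart, 15 were higher and 2 (Mrpl40 and Mrpl48) lower. Their median was 0.09, which is that of all detected genes, and 59.0% of all detected genes were higher. Examples of the second class were Mrpl54 (9.29 and 8.94), Mrpl50 (8.96 and 8.62) and Mrpl49 (7.57 and 7.20), with differences of 0.35, 0.34 and 0.37. Examples of the first were Mrpl19 (7.79 and 8.15), Mrpl28 (6.99 and 7.35) and Mrpl17 (7.79 and 8.04), with differences of -0.36, -0.36 and -0.26. Under the centring on all detected genes these medians became -0.20 and 0.00, so the first class stayed below zero and the second lay at it. The split of 15 and 2 did not hold under centring. Mrpl37, Mrpl42, Mrpl52, Mrpl58 and Mrps18a of the second class then lay below zero, as did Mrpl22 of the first.

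The small subunit did not show the same order. Its 15 genes with a bacterial counterpart had a median of 0.04, with 8 higher and 7 lower, and its 10 without had a median of -0.24, with 4 higher and 6 lower. The second group held Mrps26, Mrps34, Mrps25 and Mrps27, with differences from 0.31 to 0.38, and Mrps31, Mrps22, Mrps18b, Mrps35, Mrps33 and Mrps23, with differences from -0.72 to -0.17. Mrps18b here, and Mrps18a in the large subunit, were classed by nomenclature, although their paralogue Mrps18c is in the group with a bacterial counterpart. The difference between the classes was not tested, since 1 array per group allows no test, and genes are not replicates of a treatment.

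**Figure D3:**
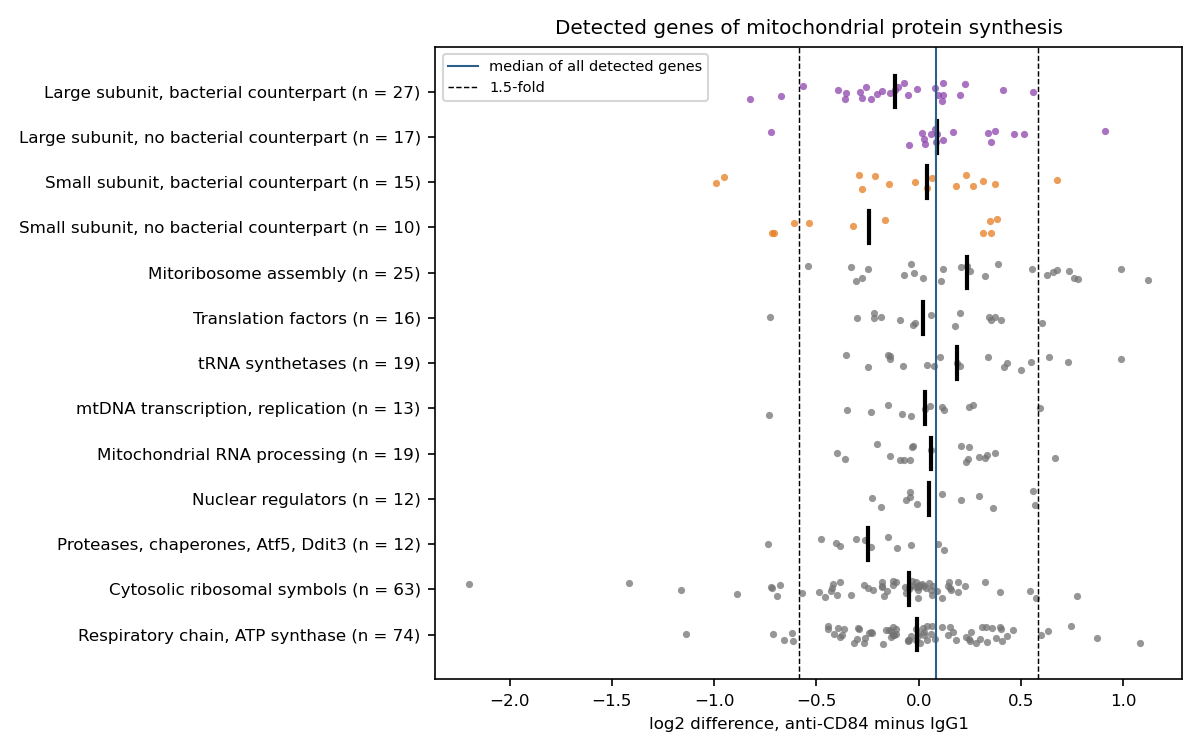
Log2 difference, anti-CD84 minus IgG1 (x axis), of each detected gene (points) in the 4 mitoribosomal classes (purple and orange) and in 9 related gene lists (grey), with a black bar at the median of each row; the blue line is the median of all detected genes, 0.09, and dashed lines mark 1.5-fold. The bar of the assembly genes, at 0.24, lies right of the blue line and that of the large subunit genes with a bacterial counterpart, at -0.12, left of it.

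For 9 of the genes a further probe set gave a reading of the same gene, and most of these readings differed in sign. The sign was the same in 2 of the 9 pairs, and in 1 of the 6 pairs whose dimmer probe set was detected. The share of such pairs among all genes with several probe sets was not computed, so this is not read as a trait of the set. Some pairs changed sign close to zero, as Mrpl12 did (-0.01 and 0.05). Mrps16 was at 5.54 after anti-CD84 and 5.24 after IgG1 on its dimmer probe set, a difference of 0.31 against -0.95 on the brighter one. Mrps18b was at 8.01 and 7.76 on its dimmer probe set, a difference of 0.25 against -0.61. So for both of the lower genes that have a further probe set, that probe set read higher after anti-CD84.

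In the other direction, Mrps18c had a difference of 0.37 on its brighter probe set and of -0.69 on the dimmer (4.99 and 5.69). Mrps5 had 0.04 on the brighter and -0.58 on the dimmer (4.96 and 5.54), and Mrps17 had -0.02 and -0.37. Averaging all probe sets of a gene left 6 of 69 genes at least 1.5-fold lower in place of 8. Under the same averaging 6.12% of all detected genes were at least 1.5-fold lower. The genes lost were Mrps16 (-0.32) and Mrps18b (-0.18), both of the small subunit. Whether the probe sets of a pair read the same transcripts was not tested. Mrps18a, a paralogue of Mrps18b and Mrps18c with 1 probe set, was at 7.82 and 7.74.

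**Figure D4:**
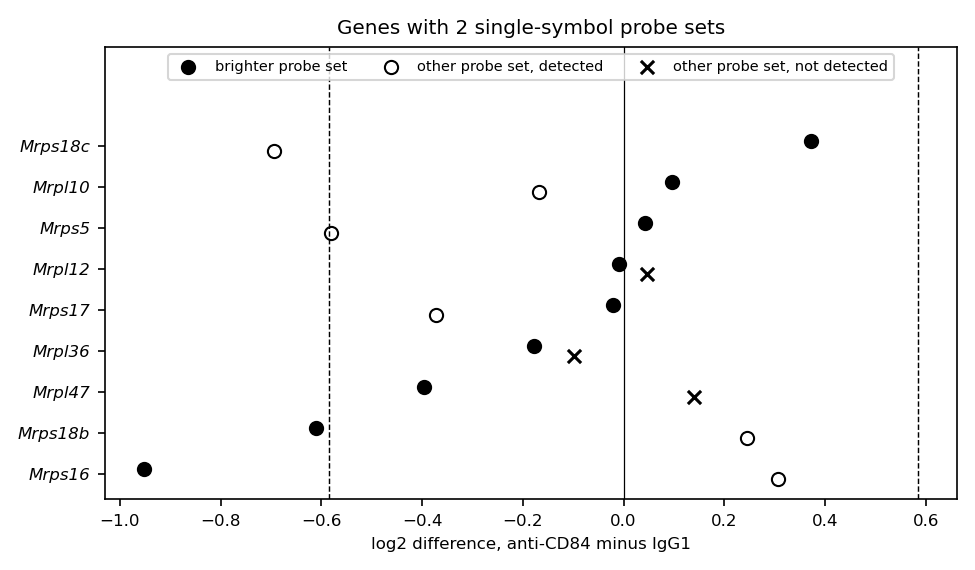
Log2 difference, anti-CD84 minus IgG1 (x axis), of both probe sets of the 9 genes that have a pair (rows); filled circles are the brighter probe set, open circles a detected dimmer one and crosses a dimmer one below the detection level, with dashed lines at 1.5-fold. For Mrps16 and Mrps18b the filled circle is left of zero and the open circle right of it, and for Mrps18c the order is the reverse.

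Factors that build the mitoribosome had more genes on the higher side than the ribosomal proteins themselves. Of 25 detected genes for assembly and rRNA modification, 8 (32.0%) were at least 1.5-fold higher and 0 lower, with a median difference of 0.24, beside 10.7% higher and 6.4% lower of all detected genes. Between levels 5 and 7 it was 5 of 15, beside 13.3% of all detected genes there, and between 7 and 8 it was 3 of 8, beside 11.9%. Eral1, a GTPase that protects the small subunit rRNA, was at 7.83 after anti-CD84 and 6.71 after IgG1, 2.18-fold higher. Mettl15, a methyltransferase of that rRNA, was at 6.70 and 5.71, 1.99-fold higher. The GTPases Gtpbp10 (8.06 and 7.28) and Mtg1 (6.22 and 5.46), which act late in large subunit assembly, were 1.72-fold and 1.69-fold higher.

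Mterf4 and Nsun4, whose proteins form a complex that methylates rRNA, were also among the 8. Mterf4 was at 6.38 after anti-CD84 and 5.65 after IgG1, and Nsun4 at 5.41 and 4.73, the second value being under the detection level. The remaining 2 were Rpusd4, a pseudouridine synthase (5.99 and 5.33), and Trmt2b, a methyltransferase (7.96 and 7.33). The lowest of the list was Mtg2 (5.67 and 6.21, a difference of -0.54). With the level limit raised to 6.88, which also removed other genes of the list, 3 of these 8 genes were still counted. Of all genes above that level 9.92% were higher. With the differences centred 6 of the 8 were counted, beside 7.71% of all detected genes.

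Of the ribosomal proteins that carry other names, 3 had a probe set of their own. Ptcd3 was at 8.47 after anti-CD84 and 9.03 after IgG1, Dap3 at 7.63 and 7.86, both of the small subunit, and Gadd45gip1, of the large subunit, at 6.01 and 6.25. All 3 were lower after anti-CD84 and within 1.5-fold.

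Genes that serve the ribosome during translation had shares not far from those of all detected genes, 10.7% higher and 6.4% lower. Of 16 translation factors 1 (6.25%) was at least 1.5-fold higher and 1 lower, with a median of 0.02. Oxa1l, which inserts new proteins into the inner membrane, was at 10.65 and 10.05, 1.52-fold higher, and the initiation factor Mtif3 at 6.21 and 6.94, 1.65-fold lower. Of 19 genes for mitochondrial aminoacyl-tRNA synthetases and the amidotransferase 3 (15.8%) were higher and 0 lower (median 0.19), namely Tars2 (7.39 and 6.40), Lars2 (7.24 and 6.51) and Vars2 (7.19 and 6.56).

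Genes upstream of the ribosome, in the upkeep and reading of mitochondrial DNA, had medians near the 0.09 of all detected genes. Of all detected genes 10.7% were at least 1.5-fold higher and 6.4% lower, and these lists are too short to tell their shares from that. Transcription and replication had 1 of 13 higher (7.69%), Top1mt (6.40 and 5.81), and 1 lower, with a median of 0.03. The lower one was Mterf2 (4.66 and 5.39, the first under the detection level). RNA processing had 1 of 19 higher (5.26%), Prorp (7.96 and 7.29), and 0 lower, with a median of 0.06. Of 12 detected nuclear regulators of mitochondrial genes 0 passed 1.5-fold, and the nearest were Gabpa (9.48 and 8.91) and its partner Gabpb2 (8.15 and 7.58). Ppargc1a, which encodes the coactivator PGC-1 alpha, did not reach the detection level on either array (3.76 and 3.59).

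The cytosolic ribosome and the respiratory chain had medians near that of the mitoribosome. Their lists were taken by symbol and hold some related genes that are no subunits. The 63 detected genes with cytosolic ribosomal symbols had a median of -0.05, with 1 (1.59%) at least 1.5-fold higher and 8 (12.7%) lower. Without symbols that carry a further suffix, such as the retroposed gene Rps23rg1 and Rps19bp1, which encodes a binding protein, 55 genes had a median of -0.04, with 1 higher and 6 lower. The widest differences among these were those of Rps15 (3.73 and 5.93, the first under the detection level) and Rps7 (6.13 and 7.29). The 74 detected nuclear genes with respiratory chain or ATP synthase symbols had a median of -0.01, with 5 higher and 5 lower (6.76% each), the lower share being near the 6.4% of all detected genes and the higher one below their 10.7%. Atp5e (7.10 and 8.24) was the lowest and Atp5j2 (5.74 and 4.65, the second under the detection level), Ndufv3 (8.08 and 7.21) and Uqcr11 (1.68-fold) the highest. How these sets differ from the mitoribosomal genes was not tested.

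The promoters of the mitoribosomal genes held 3 motifs more often than those of detected genes at large. RefSeq windows on GRCm38.p6, from 250 bases before to 50 bases after a start site, were found for 62 of the 71 genes, and the first listed window of each gene was searched on both strands for short motifs. The ETS motif CCGGAAG, the core bound by GABP, was in 35.5% of the 62, against 17.3% of 9866 detected protein-coding genes and 9.12% of all 27025 genes in the table. The YY1 motif AAGATGGC was in 19.4%, against 4.54% and 2.88%. The NRF1 motif, read as GCGCA, any base and GCGC, was in 17.7%, against 10.04% and 4.78%. At least 1 of these 3 motifs was in 37 of the 62 windows (59.7%), against 28.3% and 15.2%. ETS and YY1 share the letters AAG, but in 0 windows did their matches overlap.

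The other motifs were about as frequent as in detected genes or less so. The SP1 motif GGGCGG was in 51.6% of the 62 windows against 63.1% of detected protein-coding genes and 35.9% of all. The TATA box TATAAA was in 6.45%, against 7.68% and 14.2%, and CCAAT in 38.7%, against 38.4% and 37.9%. The median number of CpG pairs per window was 21, beside 20 for detected protein-coding genes and 7 for all genes.

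**Figure D5:**
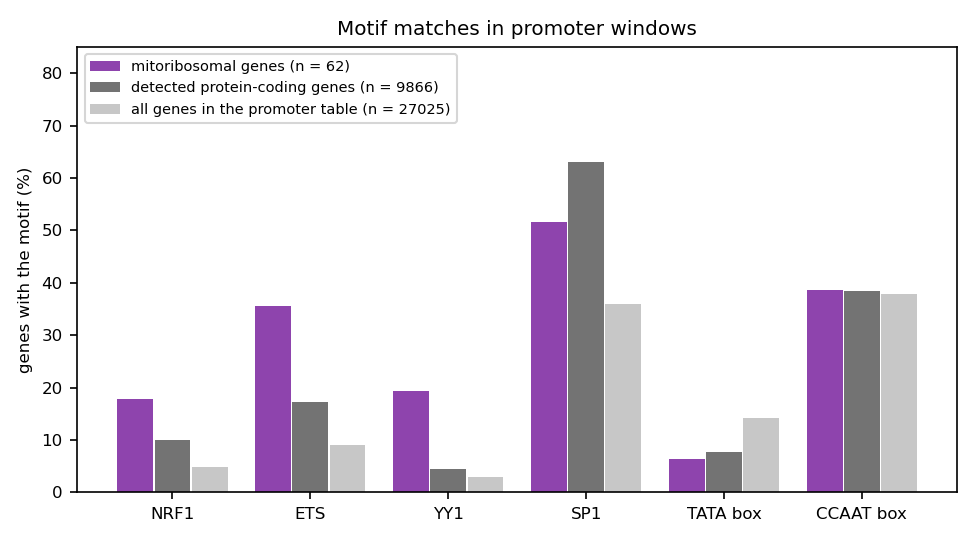
Percent of genes (y axis) whose promoter window holds a match to each of 6 motifs (x axis), for the 62 mitoribosomal genes (purple), detected protein-coding genes (dark grey) and all genes of the promoter table (light grey). The purple bar stands clear above both others for NRF1, ETS and YY1 and lies below the dark grey bar for SP1.

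The 12 detected genes with a YY1 match had differences from -0.29 to 0.37, so none of them was past 1.5-fold. Few genes with a window were past it at all, 7 lower and 1 higher among the 62. The 0 of 12 therefore does not set the YY1 genes apart. The 21 detected genes with an ETS match ranged from -0.95 to 0.51, with a median of 0.03, and the 11 with an NRF1 match from -0.99 to 0.51, with a median of 0.12. Of the 7 lower genes that have a window, 4 held at least 1 of the 3 motifs, a share near the 59.7% of the whole set. A match is a description of letters and not a binding site.

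The bases just before the start site show how such matches lie in genes on either side of zero, and are given 5′ to 3′ on the strand of the gene with NRF1, ETS and YY1 matches in capitals. Mrps22 (chr9:98601680-98601829, minus strand) was among the lower genes and Mrpl9 (chr3:94443186-94443335, plus strand) next to the limit, while Mrpl45 (chr11:97315566-97315715, plus strand) and Mrpl57 (chr14:57826164-57826238, plus strand) were among the highest. Mrps14 (chr1:160195065-160195214, plus strand), the highest gene with a window, has no capitals.
Mrps22: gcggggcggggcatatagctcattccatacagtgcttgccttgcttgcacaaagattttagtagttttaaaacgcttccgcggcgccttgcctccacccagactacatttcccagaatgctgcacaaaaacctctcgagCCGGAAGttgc
Mrpl9: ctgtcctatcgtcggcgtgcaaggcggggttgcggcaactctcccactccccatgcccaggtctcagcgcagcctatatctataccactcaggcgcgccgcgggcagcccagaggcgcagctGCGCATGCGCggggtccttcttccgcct
Mrpl45: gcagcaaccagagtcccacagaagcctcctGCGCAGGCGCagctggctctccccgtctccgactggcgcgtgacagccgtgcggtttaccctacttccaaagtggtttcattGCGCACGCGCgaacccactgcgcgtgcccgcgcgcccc
Mrpl57: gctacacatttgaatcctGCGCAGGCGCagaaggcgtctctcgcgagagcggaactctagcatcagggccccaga
Mrps14: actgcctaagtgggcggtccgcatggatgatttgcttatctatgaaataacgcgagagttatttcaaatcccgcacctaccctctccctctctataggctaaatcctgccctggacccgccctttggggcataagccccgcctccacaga
An NRF1 match thus stands before Mrpl9, with a difference of -0.57, and before Mrpl45 and Mrpl57, with differences of 0.47 and 0.51.

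Many of these genes start back to back with another gene. In 21 of the 62 (33.9%) a protein-coding gene on the opposite strand started within 1000 bases upstream, against 8.04% of 17492 protein-coding genes. The 17492 include genes that were not detected here, and the share among detected genes was not computed. Mrpl46 and Mrps11, 1 gene of each subunit, start 42 bases apart, and the whole stretch between their starts on the strand of Mrps11 (chr7:78783090-78783130) is printed because both genes are in the set.
Mrps11: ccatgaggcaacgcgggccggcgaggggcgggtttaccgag
Their differences were 0.09 and 0.07. All 21 partners were detected, and 2 (9.52%) were at least 1.5-fold higher and 0 lower, beside 10.7% and 6.4% of all detected genes. With Mrpl46 and Mrps11 counted once and without the undetected Mrpl27, 11 of 19 pairs differed in the same direction. The share among pairs of unrelated genes was not computed, so the 11 of 19 is not read as shared behaviour of back-to-back genes. Mrpl40, 1.65-fold lower, starts 113 bases from Hira, which was at 8.39 and 8.38. Mrpl57 starts 76 bases from Ska3, which was at 7.13 after anti-CD84 and 6.21 after IgG1, 1.89-fold higher, and Mrpl50 93 bases from Zfp189, at 6.80 and 6.07.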

How the data were processed

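The table the authors deposited gives 1 value for each probe set on each array, read as log2 from its range. RMA and Partek are named in the submitters' processing notes; their versions and settings and the genome build were not given in the sources used here. Probe sets were named through the platform annotation, and those with several symbols were left out. All 71 gene IDs matched RefSeq GRCm38.p6. The detection level was the 95th percentile of 1405 olfactory and vomeronasal receptor probe sets over both arrays. Differences are anti-CD84 minus IgG1, counted at 1.5-fold and 2-fold without a test. Every gene of the set could be named, with values for those past 1.5-fold or nearest to it, at the ends of the level range, undetected or with several probe sets; related lists were named by their members past 1.5-fold, up to 4, or the nearest otherwise, while the other 4 assembly genes past 1.5-fold and the further proteases and chaperones were chosen, and the narrower forms of these lists drawn, after their values were seen. Members and lists were chosen with earlier results of these data known, and the assignment to bacterial or mitochondrial descent, from standard nomenclature, was written after the values were seen. Counting was checked on simulated data. Of the mitochondrially encoded genes, 0 had a probe set of their own. Software was limma 3.58.1 under R 4.3.3, and pandas 2.3.3, numpy 2.4.6 and matplotlib 3.10.9 under Python 3.11.15. The alternatives were median centring, loess (span 0.4), quantile normalization, 3 other level filters, all probe sets averaged, and values floored at the detection level.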

Additional observations from a re-analysis of the deposited data

How the results depend on the processing

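No paired analysis was possible because each group has 1 array, and for the same reason no replicate could be left out. The count of higher genes was 2 under all settings except a stricter level of 6.88, where it was 1 of 56. Of all genes 7.71% to 10.7% were higher, depending on the setting. The count of lower genes ranged from 6 to 10. It was 8 of 56 at the stricter level, beside 2.93% of all genes there, and 6 of 69 with averaged probe sets, beside 6.12%. Under each of the 3 rescalings it was 10 of 69, beside 7.34% to 8.49%. Over all detected genes, centring moved the shares higher and lower from 10.7% and 6.40% to 7.71% and 8.49%. The 10 genes past 1.5-fold kept their direction and stayed past it under the 3 rescalings, the floored values and the filter on both arrays; Mrpl9 (-0.65 to -0.70) and Mrps35 (-0.62 to -0.67) joined them under the rescalings. Loess gave medians of -0.090 for all genes of the set, -0.088 for the large and -0.15 for the small subunit. By class it gave -0.23 (large, bacterial), -0.084 (small, bacterial) and -0.37 (small, mitochondrial), and quantile normalization -0.35 for the last. The stricter level gave -0.19 for the small subunit and -0.12 for its bacterial class. It left 3 assembly genes higher, out of a shorter list, beside 9.92% of all genes above that level. Averaged probe sets gave -0.17 and -0.16 for the same medians. The sign of the median over all genes of the set, 0.03, thus depends on the scaling. It depends on the choice of probe sets too, since averaged ones gave -0.04. The class and assembly values were added to the alternatives after seeing the data.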

Other observations

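Mitochondrial proteases and chaperones, which fold and clear imported proteins, had values below IgG1 in 8 of 10 detected genes and above it in 2. Of all detected genes 41.0% were below and 59.0% above. The median difference of the 10 was -0.25, beside 0.09 for all detected genes. These counts were not repeated under the other settings. Of the 10 genes 1 was at least 1.5-fold lower and 0 higher, beside 6.4% and 10.7% of all detected genes. The list as first drawn also held the stress transcription factors Atf5 and Ddit3, with differences of -0.15 and -0.41, which are left out of these counts. Spg7, a subunit of the inner membrane protease that also matures Mrpl32, was at 7.23 after anti-CD84 and 7.97 after IgG1, 1.67-fold lower. Dnaja3 (8.68 and 9.16) and Hspd1, the chaperonin of the matrix (10.39 and 10.78), were lower by 1.39-fold and 1.31-fold, while Hspa9 (11.94 and 11.85) and Afg3l2 (8.58 and 8.45) were higher. Mrpl32 itself was at 7.49 and 7.73.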
